A study of Mus musculus with 24 samples.

Results

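Cytosolic ribosomal protein genes were taken as the protein-coding rows of the deposited table whose names read Rpl or Rps followed by a number, plus Rplp0, Rplp1, Rplp2 and Rpsa, without the Rps6k kinase genes. The rule found 84 of 40750 genes. Of these, 31 encode proteins of the small (40S) subunit, 46 encode proteins of the large (60S) subunit, and 7 are paralogues (Rpl3l, Rpl6l, Rpl7l1, Rpl10l, Rpl22l1, Rpl39l and Rps27l). The name rule passes over genes such as Fau and Rpl36al, which also encode ribosomal proteins, and Rack1, which sits on the small subunit.

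The study followed mouse kidney after bilateral ischemia-reperfusion injury by translating ribosome affinity purification. Male mice of 8 to 10 weeks on a mixed background carried 1 copy each of Kim1-GCE, a tamoxifen-inducible Cre driven by the injury gene Kim1 (Havcr1), and of EGFPL10a, a GFP-tagged ribosomal protein that Cre switches on. Every group, sham included, shared this genotype (Kim1-GCE+/-; EGFPL10a+/-), and the mice received tamoxifen 6 h before and 24 h after injury. Both renal pedicles were clamped for 20 min, and kidneys were taken at day 2, 7 or 14. In sham the pedicles were exposed without clamping, and no day is listed for the sham libraries. GFP antibody beads separated bound RNA, from ribosomes that carry the tag, from unbound RNA, which the labels equate with the total kidney. There were 3 biological replicates at each of 4 times (sham, day 2, day 7, day 14) and 2 fractions, which gives 24 libraries in 8 groups. Tagging rests on Kim1 expression, so the cells that carry the tag can differ between times. Sham bound RNA held little Havcr1: 1.51, 1.49 and 5.62 RPKM (reads per kilobase, scaled to library depth), against 50.5, 113 and 211 at day 2. Unbound RNA at day 2 held 84.5, 151 and 143 RPKM, so the fractions overlapped. At day 7 bound RNA (131, 132 and 248) lay above unbound RNA (38.1, 54.9 and 125), and at day 14 they overlapped again. How much of the bound RNA came from tagged ribosomes was not tested.

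Each cytosolic ribosome joins a small subunit, which reads the mRNA, to a large subunit, which forms the peptide bond, and cells make their proteins in matched amounts. Their mRNAs, and those of several elongation factors, begin with a C followed by a run of pyrimidines (the 5′ terminal oligopyrimidine or TOP tract). Through this tract their translation, and so the number of ribosomes on them, follows mTOR signalling. Growing cells, kidney tubule cells among them, raise ribosome production.

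Promoter entries from RefSeq (GRCm38.p6) matched 63 of the 84 genes. Members without a matched entry included Rpl3, Rpl7, Rpl8, Rpl17, Rpl32, Rplp1, Rps14, Rps20 and Rps27a. The start-site sequences below are shown because the pyrimidine tract is the sequence feature that the family is known for, and 3 paralogues without CTCTTTC or CTTTCC within 50 bases of the start are set beside them. Each runs from 20 bases before to 10 bases from the annotated start, 5′ to 3′ on the gene's strand, with the motif CTCTTTC in capitals. The first 5 are matched genes in which the motif lies whole in that window. They lie at chr7:45718051-45718080 (+) for Rpl18, chr7:4792945-4792974 (+) for Rpl28, chr2:39005122-39005151 (-) for Rpl35, chr16:33056462-33056491 (+) for Rpl35a and chr7:118116138-118116167 (-) for Rps15a. The other 3 are paralogues, at chr17:46782647-46782676 (-) for Rpl7l1, chr3:28805488-28805517 (+) for Rpl22l1 and chr9:66946066-66946095 (+) for the upstream start of Rps27l.
Rpl18: acgagtgcgtctcgcaggccgCTCTTTCcc
Rpl28: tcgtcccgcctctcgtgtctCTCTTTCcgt
Rpl35: gaagtcggccccgccctttcCTCTTTCtct
Rpl35a: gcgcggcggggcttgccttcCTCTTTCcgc
Rps15a: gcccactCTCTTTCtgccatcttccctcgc
Rpl7l1: gcccggtgaggctgcgcaagcgcagtagct
Rpl22l1: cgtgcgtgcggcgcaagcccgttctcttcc
Rps27l: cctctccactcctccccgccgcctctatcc
In Rpl28, Rpl35 and Rpl35a the motif starts at the first transcribed base of the annotation. The Rpl22l1 window is all pyrimidines after its first transcribed base, so it lacks the exact strings searched but not a pyrimidine run. Within 50 bases of a start, CTCTTTC stood on the gene's strand in 12 of 63 genes (19.0%), against 1.62% of 27025 genes with a promoter entry. CTTTCC, searched in the same way and partly overlapping it, stood in 19 of 63 (30.2%) against 5.43%. On the other strand the shares were 1.59% against 1.49% and 3.17% against 5.12%. In the 300-base windows, CCGGAAG (the ETS family motif) was found on either strand in 26 genes (41.3%) against 9.93%, and AAGATGG (the YY1 motif) in 10 (15.9%) against 7.28%. The 22 tested genes with CTCTTTC or CTTTCC on the gene's strand and the 37 without had close medians: a log2 fold of 1.12 and 1.14 in bound RNA at day 2 against sham, and -1.26 and -1.34 in sham bound against unbound RNA.

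Listed levels of the members span from 0 to over 1000 RPKM. In sham unbound RNA, 73 of 84 genes were at 1 RPKM or more, 56 at 10 or more, 23 at 100 or more and 2 at 1000 or more. Rpl32 stood at 1511 ± 243 RPKM (SD, n = 3) and Rpl8 at 1152 ± 129. Rpl5 stood at 0.561 ± 0.0291 and Rpl10a at 0.967 ± 0.137. The level moved with how much of a gene's transcript sequence is its own. The share of 50-base stretches found in no other GENCODE M21 transcript correlated with the sham unbound level at a Spearman rho of 0.34 across 83 genes, and that of 100-base stretches at 0.46. These are descriptions across genes, which are not independent. The median level was 2.80 RPKM in the 11 genes with under 25% unique stretches, 19.6 in the 17 from 25% to 50%, 60.2 in the 34 from 50% to 75% and 57.7 in the 21 above. The table also holds 241 rows of ribosomal protein pseudogenes. No source used here states how reads shared with such copies were counted, so the levels of low members are uncertain. The folds below compare libraries within a gene.

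A filter of at least 1 RPKM in at least 3 libraries left 78 members among 13721 tested genes. Rpl10l was listed at 0 in all 24 libraries. Rpl23a, Rpl24, Rpl39l, Rpl6l and Rps6 did not pass, with highest values of 0.797, 0.553, 0.480, 0.312 and 0.611 RPKM. For Rps6, the classical phosphorylated protein of the small subunit, that came to a median of 9 inferred reads per library, with 15.4% of its 50-base stretches unique. Inferred depth was 15720000 to 24650000 reads per library. Correlation with the other libraries of the group was lowest for day 14 replicate 3 in both fractions (r = 0.901 bound, 0.941 unbound). Folds below are log2 folds of RPKM + 0.5 fitted by limma, and a gene rose or fell where its Benjamini-Hochberg adjusted p over all tested genes lay under 0.05. The comparisons of bound RNA with sham share the same 3 sham libraries, which also enter the sham comparison of fractions and the interactions. The median of all tested genes stood between 0.13 and 0.22 in each comparison with sham, so member folds are read against that shift. Coordinates below are of GRCm38 (GENCODE M21).

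In the sham kidney, ribosomal protein mRNAs were low in bound RNA. All members together held 0.933%, 1.08% and 1.27% of the RPKM total in the 3 sham bound libraries, and 2.09%, 2.51% and 2.06% in the sham unbound libraries, so the ranges did not overlap. Bound RNA was lower for 64 of 78 tested members and higher for none, where 12.9% of all tested genes were lower and 14.6% higher. The median log2 fold was -1.32, against 0.01 for all tested genes. Every library of the bound group lay below every unbound library for 70 members, against 18.7% of all genes. Small-subunit genes (27 of 30 lower, median -1.33) and large-subunit genes (34 of 44, median -1.27) had close medians. In these bulk libraries, fewer cells with much of an mRNA, less of it per cell and fewer tagged ribosomes on it cannot be told apart.

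Rpl32, a large-subunit protein at chr6:115805505-115808747, was the member furthest below in bound RNA. It stood at 253, 253 and 393 RPKM in sham bound libraries and at 1423, 1786 and 1326 in unbound ones, with no overlap (log2 fold -2.35, SE 0.41, adjusted p = 0.000416, limma). Rps25, of the small subunit, stood at 101 ± 8.78 RPKM unbound and 26.4 ± 9.26 bound (SD, n = 3; log2 fold -1.97). Rpl41, which encodes the shortest protein of the ribosome, stood at 320 ± 2.17 unbound and 82.3 ± 7.49 bound (log2 fold -1.96). At the other end among members at 5 RPKM or more (here and below, the mean of the higher group), Rpl7l1 stood at 38.9, 37.7 and 59.0 RPKM bound and 44.0, 40.5 and 55.9 unbound. These overlapped, and the log2 fold was -0.07 (SE 0.20, adjusted p = 0.853). Rpl28 (-0.71, adjusted p = 0.0724) and Rpl18 (-0.77, adjusted p = 0.0402) came next.

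**Figure D1:**
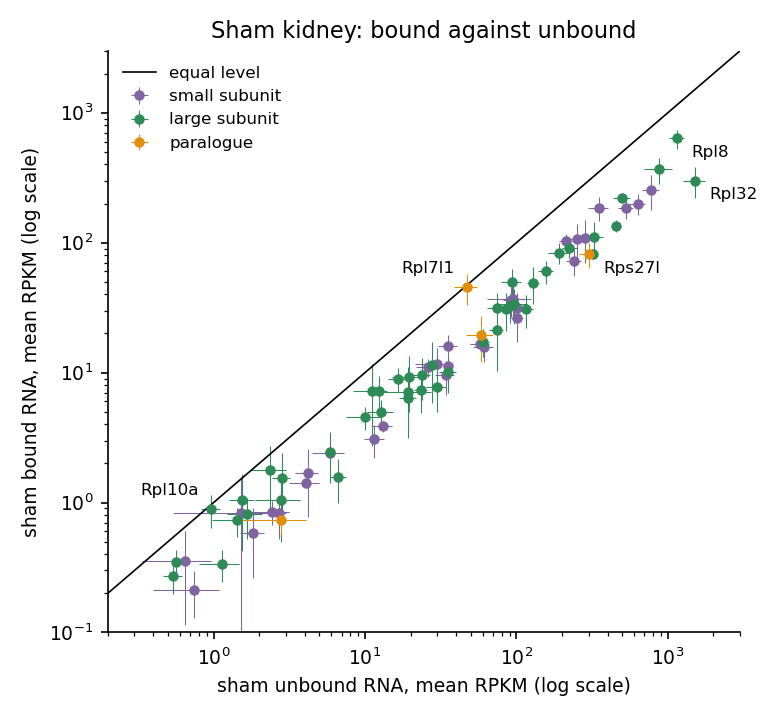
Mean RPKM of the 78 tested members in sham bound RNA (vertical, log scale) against sham unbound RNA (horizontal, log scale); bars are the SD of 3 libraries (lower bars end at 10% of the mean where longer) and the line marks equal levels. Nearly all points lie below the line, Rpl32 furthest, while Rpl7l1 lies on it.

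Other measures moved with the fraction in sham. The summed level of 11 proximal tubule markers was 1030 to 1360 RPKM in bound and 2659 to 2854 in unbound libraries. That of 5 podocyte markers was 61.8 to 183 and 15.8 to 23.7, and that of 10 distal tubule and collecting duct markers was 315 to 1854 and 334 to 522. No marker of these lists was at 0 throughout. Among proximal tubule markers, Slc34a1 stood at 605, 528 and 538 RPKM bound and 1295, 1256 and 1466 unbound. Lrp2 overlapped, with 40.3, 62.3 and 48.75 bound and 50.15, 76.3 and 45.1 unbound, so the sum does not hold for each gene. Havcr1 was at 4.32, 3.93 and 24.1 RPKM in sham unbound RNA, each above the bound library of the same number. Transcript length moved with the result as well. Among genes that are no members, the median log2 fold was -0.24 for 1136 genes with a median coding transcript under 750 bases and 0.30 for 3683 genes of 3000 bases or more. Among 535 other genes that are both under 1000 bases and at a mean of 50 RPKM or more, it was -0.77, and 47.5% of them were lower. The median member transcript has 713 bases. With the length trend of each library subtracted, 54 members were lower, with a median of -1.05. That subtraction follows length alone, and the part of length together with abundance was not tested. The part of cell makeup in the result was not tested.

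At day 2 after injury, bound RNA had more ribosomal protein mRNA than in sham. Of 78 members, 55 rose and none fell, where 13.3% of all tested genes rose and 6.48% fell. The median log2 fold was 1.13, against 0.16 for all genes. The member share of RPKM was 1.22%, 2.40% and 3.15% in the 3 libraries, so replicate 1 lay within the sham range of 0.933% to 1.27%. Only 27 members had all day 2 libraries above all sham libraries, where 16.6% of all genes did. The count was 21 without day 2 replicate 3, 34 without sham replicate 1, 35 without day 2 replicate 2 and 71 without day 2 replicate 1. It was 1 when the spread was estimated from these 2 groups alone. Day 2 replicate 1 also held the least Havcr1 of its group (50.5 RPKM) and the most Slc34a1, a proximal tubule transporter (259 against 153 and 122). Day 2 replicate 3 held 348 RPKM of the collecting duct gene Aqp2, against 36.8 and 25.6. Sham bound libraries spread as widely in Aqp2, at 39.2, 114 and 350 RPKM. The part of these differences was not tested.

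Rpsa, the laminin receptor-like protein of the small subunit at chr9:120127689-120132369, rose most. Its level was 2.72, 2.59 and 1.92 RPKM in sham bound libraries and 5.76, 15.3 and 21.1 at day 2 (log2 fold 2.16, SE 0.33, adjusted p = 0.000143, limma). All 3 day 2 libraries lay above sham, the first by the least. Rps26, which contacts the mRNA at the exit of the small subunit, went from 78.4, 95.4 and 154 to 185, 582 and 792 RPKM (log2 fold 2.06, SE 0.36, adjusted p = 0.000495). Rps24, a small-subunit protein, went from 26.3, 26.0 and 42.3 to 45.0, 133 and 270 RPKM (log2 fold 1.92, SE 0.41, adjusted p = 0.00279). Groups did not overlap for any of these genes. Rps2, of the mRNA entry channel, rose by a log2 fold of 1.67, and Rps19, needed to mature the small subunit, by 1.51. The lowest folds among members at 5 RPKM or more were those of Rpl7l1 (0.14, adjusted p = 0.661), Rpl3 (0.15, adjusted p = 0.767) and Rpl36 (0.43, adjusted p = 0.341). Rpl3, which lies near the peptidyl transferase centre, stood at 8.14, 5.58 and 13.9 RPKM in sham and 7.36, 13.9 and 8.73 at day 2, fully overlapping.

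**Figure D2:**
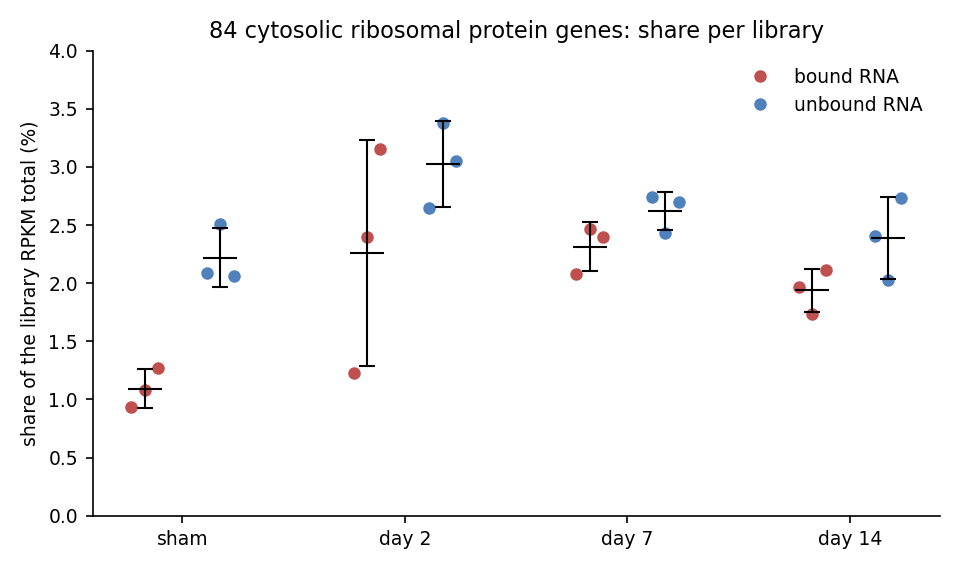
Share of each library's RPKM total held by the 84 members (vertical, %), by time and fraction; points are libraries and black bars mean ± SD of 3. The sham bound libraries sit at 0.933% to 1.27%, below all others except day 2 bound replicate 1 at 1.22%.

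At day 7, the 3 bound libraries lay close together and above sham. Of 78 members, 67 rose and none fell (15.2% of all genes rose and 7.55% fell), with a median log2 fold of 1.48 against 0.13. All day 7 libraries lay above all sham libraries for 71 members, where 24.9% of all genes did. The member share was 2.08%, 2.47% and 2.40%, close to the 2.06% to 2.51% of sham unbound RNA. Rps27l, a paralogue of Rps27 that p53 is known to induce, rose most. At chr9:66946086-66949516, it stood at 68.6, 73.7 and 102 RPKM in sham and 412, 389 and 402 at day 7 (log2 fold 2.32, SE 0.35, adjusted p = 0.000221, limma). The 3 day 7 libraries differed little and lay far above sham. Rpl39, at the peptide exit tunnel, went from 5.77, 6.52 and 11.03 RPKM to 30.8, 42.8 and 34.4 (log2 fold 2.18, adjusted p = 0.000829). Rps28 went from 3.08 ± 0.864 to 13.6 ± 2.08 (log2 fold 1.99, adjusted p = 0.000619). Rpl28 (0.95) and Rps4x (1.01) rose least among the called members at 5 RPKM or more. Rpl7l1 was at 58.6, 58.5 and 68.5 RPKM, overlapping sham (log2 fold 0.47, adjusted p = 0.0957).

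At day 14, 52 members rose and none fell (8.71% of all genes rose and 4.58% fell), with a median of 1.16 against 0.18. No overlap with sham was seen for 64 members, against 15.5% of all genes above sham in this way. The share was 1.96%, 1.74% and 2.11%. Rps27l stood at 508, 492 and 191 RPKM (log2 fold 2.17, SE 0.35, adjusted p = 0.0011), with replicate 3 well below the other libraries but above sham. Rpl39 (1.93), Rpl35a (1.79) and Rps19 (1.79) followed. The count was 25 without sham replicate 1, 30 without sham replicate 2 and 27 without day 14 replicate 1. It was 55 without day 14 replicate 3, the library that stood apart and held 36.8 RPKM of the macrophage gene Cd68 against 3.47 and 2.23. It was 33 in TPM (each library rescaled to the same RPKM total) and 1 when the spread came from these 2 groups alone, while at day 7 that last setting gave 64. Between day 7 and day 2 in bound RNA no member passed (median 0.33, where 3.56% of all genes were higher and 3.53% lower). Among members at 5 RPKM or more, the highest values were those of Rpl32 (0.94), Rpl3 (0.88) and Rps27l (0.87) and the lowest those of Rpsa (-0.77), Rps2 (-0.41) and Rpl13 (-0.27). Without day 2 replicate 3, 20 members were higher at day 7, and without day 2 replicate 1, 3 were lower. From day 7 to day 14 no member and no other gene passed (0.00% called), with 8 of 78 folds above 0 and a median of -0.27. For 21 members all day 14 libraries lay below all day 7 libraries, where 7.05% of all genes did. The values ran from -0.75 for Rpl27, -0.64 for Rpl38 and -0.64 for Rps16 to 0.26 for Rpl15, among members at 5 RPKM or more.

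**Figure D3:**
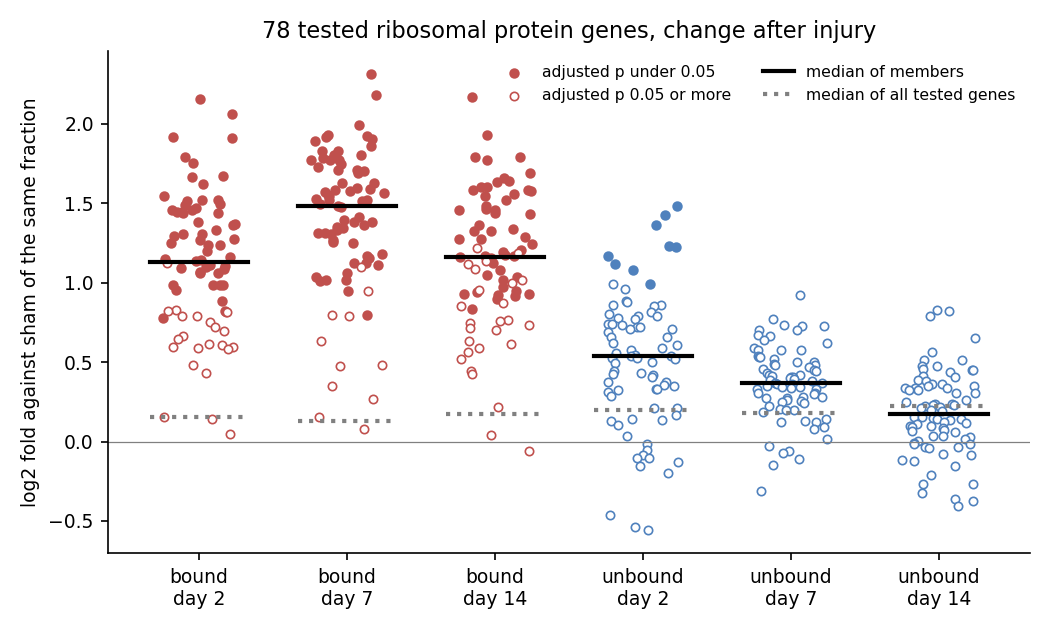
Log2 fold of each of the 78 tested members against sham of the same fraction (vertical), by fraction and day; filled points have an adjusted p under 0.05, black bars are member medians and dotted bars the medians of all tested genes. Bound medians lie at 1.13, 1.48 and 1.16 and unbound medians at 0.54, 0.37 and 0.17.

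Length and cell markers moved with the bound changes too. At day 7, the median log2 fold of other genes was 0.47 under 750 bases and -0.09 at 3000 bases or more, and 0.82 for the 535 short, abundant genes, of which 49.2% rose. At day 2 that last group had a median of 0.35, and at day 14 of 0.65. With the length trend subtracted, 56, 60 and 43 members rose at day 2, 7 and 14, with medians of 1.05, 1.20 and 0.92. The sum of 8 genes of dividing cells was 3.23 to 9.74 RPKM in sham bound libraries, 136 to 190 at day 2, 23.9 to 31.8 at day 7 and 5.31 to 27.0 at day 14. The sum of 11 macrophage markers was 177 to 315, 141 to 420, 977 to 1593 and 668 to 4779, in the same order. Such a sum weighs abundant genes most. Cd68 of this list went from 2.565, 2.09 and 0.419 RPKM in sham bound libraries to 6.555, 11.6 and 14.5 at day 2, without overlap. The mean sum of the list was 249 RPKM in sham bound libraries and 252 at day 2, so Cd68 does not stand for the list. How many others of the list did so is not given here. The sum of 11 proximal tubule markers was 1030 to 1360, 525 to 845, 1102 to 1351 and 825 to 2449, in the same order. Day 2 bound libraries thus had lower summed proximal tubule markers and higher summed dividing cell markers than sham, while at day 7 the proximal tubule sums overlapped sham. Of 5 podocyte markers, 5 were higher in bound than in unbound sham RNA (median log2 fold 2.35). In bound RNA after injury 0 of them were lower at day 2 (-0.64), 4 at day 7 (-1.43) and 1 at day 14 (-1.45). Distal tubule and collecting duct markers were lower for 4, 7 and 2 of 10 genes at day 2, 7 and 14. Of 4 tested neutrophil markers, 4 were higher at day 2 (3.00), 0 at day 7 (0.65) and 0 at day 14 (1.07). Injured tubule markers were higher for 5 of 6 genes at each day. The part of cell makeup was not tested.

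Fewer members passed in unbound RNA. At day 2, 9 of 78 rose and none fell (9.76% of all genes rose and 5.04% fell), with a median of 0.54 against 0.20. This share of 9 in 78 is near that of all genes. The member share was 2.65%, 3.38% and 3.05%, above the sham unbound range. All day 2 libraries lay above sham for 47 members and below for 2, where 31.2% and 13.3% of all genes did. Among the 9 were Rps24, Rpsa, Rpl12, Rps26, Rpl39, Rpl13, Rplp1 and Rps10, and none of the 9 overlapped sham. Rps24 went from 101, 116 and 83.7 RPKM to 185, 315 and 375 (log2 fold 1.49, adjusted p = 0.0189, limma), and Rpsa from 6.90, 6.41 and 4.24 to 10.4, 18.6 and 22.0 (1.43, adjusted p = 0.00631). Rpl32 (-0.54, adjusted p = 0.394) and Rpl36 (-0.56, adjusted p = 0.226) had the lowest values. The count was 1 without sham replicate 3, day 2 replicate 2 or day 2 replicate 3 and 2 without sham replicate 1. After median-ratio rescaling it was 4. With the spread of these 2 groups alone it was 33 higher and 1 lower. At day 7 no member passed (0.911% of all genes rose and 0.182% fell), with a median of 0.37 against 0.18 for all genes. Values ran from -0.31 for Rps25 to 0.73 for Rps24, among members at 5 RPKM or more. At day 14 none passed either (0.984% rose and 0.248% fell). The median was 0.17 against 0.22 for all genes, or -0.054 against -0.0002 after median-ratio rescaling. Among members at 5 RPKM or more, the values ran from -0.41 for Rpl32 to 0.65 for Rps24. At day 7 the estimate from these 2 groups alone gave 15 higher. An F-test over the 4 times called 64 members in bound RNA (27.0% of all genes) and 1 in unbound RNA (9.82%). Whether the fractions differ was tested by the interactions below.

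After injury the median gap between the fractions was smaller. The median log2 fold of bound against unbound was -0.69 at day 2, -0.27 at day 7 and -0.33 at day 14, after -1.32 in sham. At day 2, 1 member, Rpl17, was lower and none was higher (0.503% and 1.17% of all genes). No member passed at day 7 (1.32% of all genes lower and 1.03% higher) or day 14 (0.474% and 0.343%). Rplp0 was lowest at both times among members at 5 RPKM or more, with -0.88 (adjusted p = 0.121, limma) and -0.85 (adjusted p = 0.248). The highest were Rpl27 (0.41) at day 7 and Rps27l (0.19) at day 14. Bound and unbound libraries with the same number deviated together from their group means (r of 0.27 to 0.67 in all 12 pairs), so a fit with the replicate number as a block was made. With the replicate block, 24 members were lower at day 2 (9.50% of all genes called), 2 at day 7 (11.4%) and 1 at day 14 (2.62%), and 68 in sham (39.3%). Among the 24 were Rps20 (-1.29, adjusted p = 0.0106, limma) and Rps24 (-1.25, adjusted p = 0.0173). At day 2 the count without a block was 47 without bound replicate 3. At day 7 the spread of the groups compared alone gave 10 lower. The 2 members at day 7 were Rplp0 and Rpl17 (-0.64), and the 1 at day 14 was Rpl5 (-1.08).

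The interaction, the change in bound RNA minus that in unbound RNA, was above 0 for 77 of 78 members at day 2, 75 at day 7 and 76 at day 14. The medians were 0.64, 1.10 and 0.99, against -0.006, -0.09 and -0.12 for all genes. The signs of the members are not independent, since members share libraries and vary together. No member passed at any of these times, where 0.00%, 0.146% and 0.197% of all genes were called. With the replicate block, 15 members passed at day 7 (5.26% of all genes called) and 12 at day 14 (6.28%), all higher in bound RNA, and none at day 2. Without a block, the count was 7 at day 2 without day 2 bound replicate 1, 4 at day 7 without sham bound replicate 3, 12 at day 14 without day 14 bound replicate 3, and 44 at day 7 with the spread of the groups compared alone. By p with the block, Rps19 led both times, with an interaction of 1.65 at day 7 (SE 0.30, adjusted p = 0.0223, limma) and 1.65 at day 14 (adjusted p = 0.0156). Rps7 came next at day 7 (1.46, adjusted p = 0.0284). Rps27l had larger values, 1.98 (adjusted p = 0.0285) and 2.08 (adjusted p = 0.0213). Rpsa passed with smaller values, 0.99 (adjusted p = 0.0342) and 0.98 (adjusted p = 0.0296).

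Among the proteins with a role of their own, Rpl10a comes first because its protein carries the tag. Its gene, at chr17:28328471-28331033, was listed at 0.612, 1.12 and 0.932 RPKM in sham bound RNA and 1.70, 3.82 and 4.10 at day 2. It rose at day 2 (log2 fold 1.36, SE 0.36, adjusted p = 0.0116, limma), with adjusted p = 0.0628 at day 7 and 0.0698 at day 14. Bound and unbound levels overlapped at every time. Only 37.4% of its 50-base stretches are unique, and the row does not separate the tagged from the native transcript.

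The P stalk, which recruits elongation factors, was abundant. Rplp1 stood at 204, 215 and 245 RPKM in sham bound RNA, 268, 771 and 1162 at day 2 and 641, 618 and 652 at day 7. It rose at each day, with log2 folds of 1.49, 1.53 and 1.19 at day 2, 7 and 14. Rplp2 did likewise with 1.30, 1.63 and 1.17. Rplp0, the base of the stalk, had 1.14, 1.13 and 0.85, and the last of these missed the threshold (adjusted p = 0.0554). In unbound RNA at day 2, Rplp1 rose by 1.08 (adjusted p = 0.0344), while Rplp0 (0.42) and Rplp2 (0.59) did not pass. Rpl5 and Rpl11, which form the 5S particle that binds Mdm2 and stabilises p53 when ribosome assembly fails, were low in the table. Rpl5 stood at 0.346 ± 0.0873 RPKM in sham bound RNA and 0.783 ± 0.242 at day 2 (SD, n = 3; log2 fold 0.59, adjusted p = 0.119). Rpl11 stood at 1.04 ± 0.619 and 2.40 ± 1.41 (0.83, adjusted p = 0.0857). Only 14.6% of the 50-base stretches of Rpl5 are unique, against 46.0% for Rpl11.

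Among core proteins, levels ranged widely and most rose. Rps14, of the small subunit, stood at 158, 214 and 228 RPKM in sham bound RNA and 570, 712 and 610 unbound, and in bound RNA it rose at each day (log2 folds 0.98, 1.60 and 1.43). Rpl13a, known for release from the ribosome in inflammation, had log2 folds of 1.25, 1.27 and 1.20, and Rpl26, at the exit tunnel, of 1.15, 1.63 and 1.36, all past the threshold. Rps27a, made as a fusion with ubiquitin, rose from 0.848 ± 0.176 RPKM (SD, n = 3) by 1.55, 1.59 and 0.97. Rpl10, which completes the large subunit, rose at day 2 (0.96) and day 7 (0.79) from a low 0.728 ± 0.181 RPKM (SD, n = 3). Genes with little shared sequence were also among those that rose. Rpl4 (83.5% unique) stood at 308, 329 and 463 RPKM in sham bound RNA and 696, 879 and 872 at day 7, with no overlap (log2 fold 1.17, adjusted p = 0.00337). Rps3 (97.2% unique), of the mRNA entry channel, stood at 88.5, 99.7 and 118 and then at 245, 240 and 241 (1.25, adjusted p = 0.00219). Of 53 members with at least 50% unique stretches, 48 rose at day 7 with a median of 1.52, and of 25 with less, 19 rose with a median of 1.25. In sham, 45 of 53 and 19 of 25 were lower in bound RNA.

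Paralogues did not move as one group. Rpl22l1 followed Rpl22: log2 folds in bound RNA at day 2, 7 and 14 were 1.46, 1.77 and 1.58 for the paralogue and 1.07, 1.41 and 1.16 for Rpl22, all past the threshold. In sham bound RNA, Rpl22l1 stood at 13.7, 16.8 and 28.03 RPKM and Rpl22 at 22.6, 29.7 and 41.7. Rpl7l1, a protein of ribosome assembly by its known role, kept a level between 37.1 and 68.5 RPKM in all 24 libraries. Rpl7 stood at 38.0, 46.8 and 63.5 in sham bound RNA and 111, 125 and 131 at day 7 (1.33, adjusted p = 0.00107). Rps27l exceeded Rps27 in every library, since Rps27 was at most 2.83 RPKM. In Rps27, 53.8% of 50-base stretches are unique, and in Rps27l 83.8%. Rpl3l, known from muscle, was at 0.61, 0.918 and 0.666 RPKM in sham bound RNA, below the 4.22, 2.49 and 1.62 of unbound RNA (-1.34, adjusted p = 0.0215). Rpl10l and Rpl39l, known from testis, were at 0 in all and in most libraries.

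**Figure D4:**
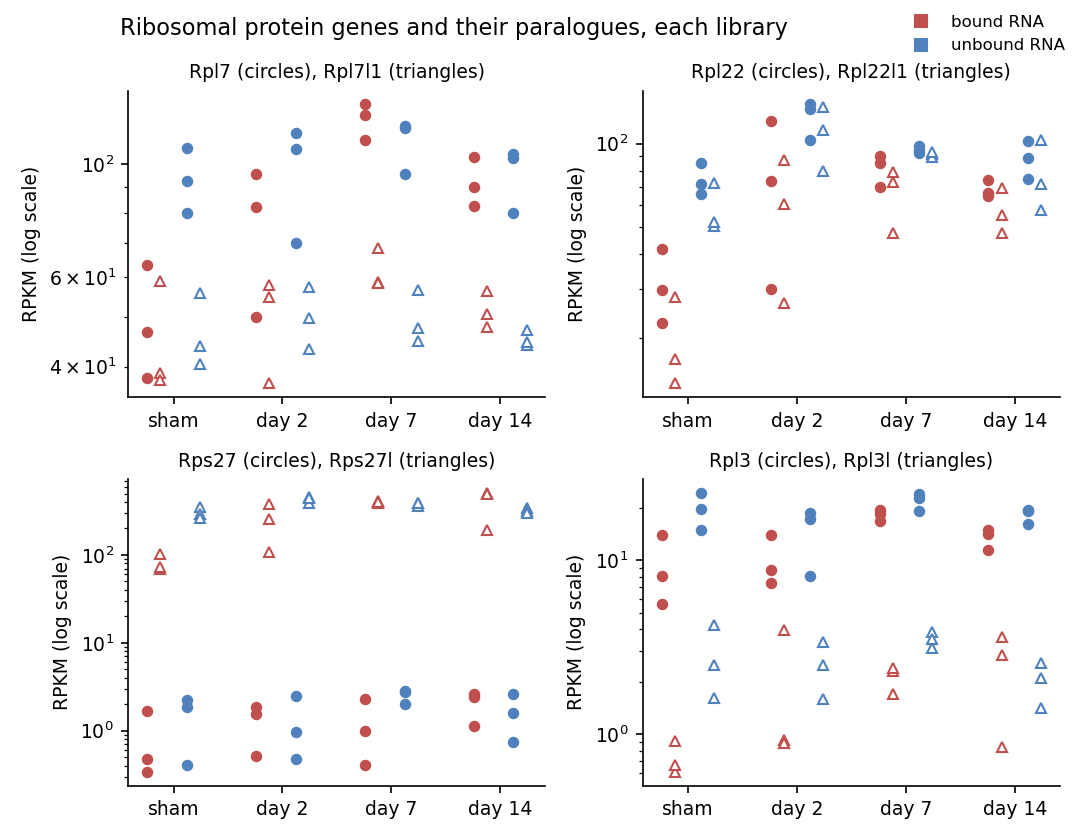
RPKM (log scale) of 4 ribosomal protein genes (circles) and their paralogues (open triangles) in each library by time, bound in red and unbound in blue. Rpl7l1 stays between 37.1 and 68.5 RPKM while Rpl7 rises in bound RNA, and Rps27l lies far above Rps27.

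The genes most like the members, by Pearson r across 24 libraries between log2 values and the mean of the tested members, were Gm2000 (0.977), Eef1b2 (0.974), Eef1d (0.971), Rps16-ps2 (0.968) and Naca (0.964). These share libraries and depth with the members, and the r is a description. Eef1b2 and Eef1d encode subunits of the factor that reloads elongation factor 1 with GTP, and Naca a protein that binds nascent chains. Among members, r with that mean was 0.995 for Rpl34 and fell to 0.448 for Rpl7l1 and 0.404 for Rps27.

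Related lists followed in part. Among ribosomal genes that the name rule leaves out, Fau (-1.33), Rpl36al (-1.22) and Rack1 (-0.80) were lower in sham bound RNA. Rack1 (0.90) and Fau (1.02) rose in bound RNA at day 2, and Rpl36al had 0.91 (adjusted p = 0.0529, limma). Of 17 other TOP genes of translation, 11 were lower and none higher in sham bound RNA (median -0.87). Elongation factor Eef1a1 stood at 228 ± 40.8 RPKM bound and 595 ± 73.1 unbound (SD, n = 3; -1.39). In bound RNA at day 2, 6 of them rose and none fell (0.65), led by the poly(A)-binding protein Pabpc1 (1.83) and Eef1b2 (1.74), and at day 7, 12 rose and none fell (0.93).

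Lists of genes that assemble or regulate ribosomes had medians above 0 in sham bound RNA. Of 38 ribosome biogenesis genes, 10 were higher and 4 lower in sham bound RNA (median 0.34), among them the large-subunit assembly factor Bop1 (1.89) and the nucleolar chaperone Npm1 (-1.04). In bound RNA at day 2, 12 rose and none fell (0.42), with Npm1 at 1.28 and Gar1, of the box H/ACA particles, at 1.76. In unbound RNA at day 2, 12 rose and none fell as well (0.64). Of 18 genes of cap-dependent initiation, 5 were higher and 2 lower in sham bound RNA (0.10). Eif3d, of the initiation factor that binds the cap of some mRNAs, stood at 263 ± 130 RPKM bound and 40.3 ± 7.07 unbound (SD, n = 3; 2.55), and Eif4g1 rose in bound RNA at day 2 (1.23), where 5 rose and none fell (0.34). Of 15 genes of RNA polymerase I and its factors, 3 were higher and 2 lower in sham bound RNA (0.36), and 2 rose at day 2, Taf1d (1.72) and Polr1d (0.87). Of 21 growth regulators, 4 were higher in sham bound RNA, among them Larp1 (1.20), which represses TOP mRNAs, and Rptor (0.99). At day 2 in bound RNA 3 rose: Eif4ebp1 (2.06), Myc (1.66) and Rps6kb1 (0.69). These polymerase and growth counts are near those of all genes, of which 13.3% rose at day 2 in bound RNA, and 14.6% were higher and 12.9% lower in sham bound RNA.

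Lists of mitochondrial genes are given for comparison. Of 73 mitochondrial ribosomal protein genes, 30 were lower and 11 higher in sham bound RNA (-0.60), 8 rose and 4 fell in bound RNA at day 2 (0.39) and 41 rose and 4 fell at day 7 (0.82). Of 89 respiratory chain genes, 61 were lower and 7 higher in sham bound RNA (-1.10), and 45 rose and 9 fell at day 7 (0.97). At day 2 only 2 of these rose and 14 fell (0.24), while 55 of the 78 cytosolic members rose. Of all genes, 13.3% rose and 6.48% fell in bound RNA at day 2, and 15.2% rose and 7.55% fell at day 7. In sham, 12.9% were lower and 14.6% higher in bound RNA. The day 2 counts of mitochondrial ribosomal protein genes are near those of all genes. Whether the cytosolic members differ from the mitochondrial lists was not tested.

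**Figure D5:**
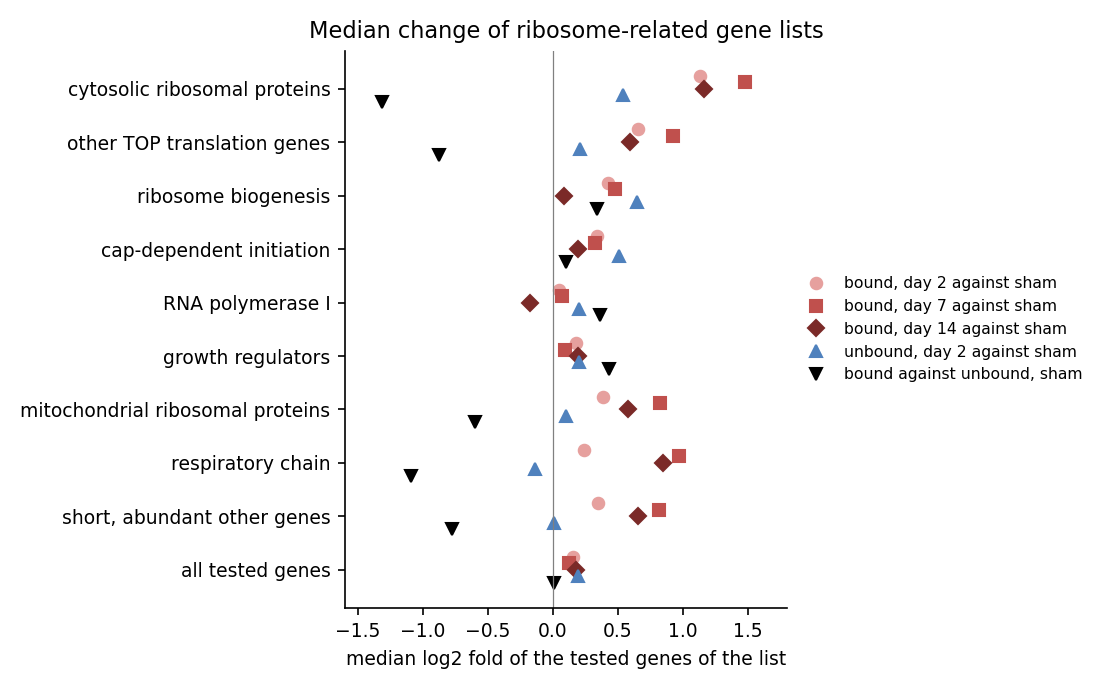
Median log2 fold (horizontal) of the tested genes of each list in 5 comparisons; short, abundant other genes have a coding transcript under 1000 bases and a mean of 50 RPKM or more. Cytosolic ribosomal proteins have medians of 1.13, 1.48 and 1.16 in bound RNA at day 2, 7 and 14 and -1.32 between the sham fractions.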

How the data were processed

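Kidney RNA of 24 libraries was sequenced after a low-input cDNA kit, per the labels' protocols. The authors deposited RPKM values, made per the submitters' processing notes with STAR 2.0.4b, featureCounts 1.4.5 (Subread) and edgeR. The genome build and strand setting are not given in the sources used here. Of 41831 lines, 1081 identical repeats were dropped. Depth was inferred from the spacing of low RPKM values with GENCODE M21 exon lengths, where 73.8% to 78.1% of values came to whole reads within 0.02 reads (4% by chance).

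From these values, limma 3.58.1 (R 4.3.3) estimated one mean per group over all 24 libraries on log2(RPKM + 0.5), with variance following abundance and no block. Genes reaching 1 RPKM in 3 or more libraries entered, and 15 contrasts and 2 F-tests were each adjusted by Benjamini-Hochberg over them. The fit was tested on simulated data. Alternatives were other pseudocounts, filters and scalings, no variance trend, the spread of the compared groups alone, each library left out and the replicate block. Subtraction of the trend with transcript length and a split by unique 50-base stretches were chosen after seeing the data. The labels do not say that numbers mark shared mice. Deviations from group means correlated at 0.27 to 0.67 in all 12 same-number fraction pairs, which were taken as paired. Of pairs across times, only those of bound day 7 and day 14 all exceeded 0.1 (0.13, 0.17 and 0.14), and there the block changed no call.

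Named genes are members with a set role or paralogue, up to 3 members at each end of a comparison at 5 RPKM or more in the higher group, the 5 genes most like the members, and up to 4 of each list by p in 2 comparisons. Rpl8, Rpl17, Rpl34, Rps10, Rpl12 and Rpl13 were named after their values were seen. Members, lists and this rule were chosen with earlier results of these data known. Some genes that enter the counts are not reported here by name.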

Additional observations from a re-analysis of the deposited data

Results flagged for a closer look

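The change after injury differed between the fractions in the interaction test with the replicate block (limma). At day 7, 15 members passed, where 5.26% of all tested genes did, all with a larger change in bound RNA: Rps19 (1.65), Rps7 (1.46), Rps27l (1.98), Rpsa (0.99), Rpl17 (1.18), Rps25 (1.68), Rpl34 (1.48), Rpl35a (1.58), Rps2 (1.18), Rps15a (1.25), Rpl14 (1.26), Rps27a (1.24), Rpl38 (1.47), Rps23 (1.38) and Rpl29, as log2 values. At day 14, 12 members passed, where 6.28% of all genes did, with values from 0.98 for Rpsa to 2.08 for Rps27l. Without the block, 0 members passed at either time. Both times use the same sham libraries.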

How the results depend on the processing

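No alternative reversed the sign of a called result. The replicate block changed the counts between fractions and of the interactions that stand in the report. It left 56, 67 and 53 members higher in bound RNA at day 2, 7 and 14 and 11 in unbound RNA at day 2. In TPM, member medians moved to 1.15 and 0.88 in bound RNA at day 7 and 14. Those between fractions moved to -0.93 in sham and -0.17 at day 7. In the day 7 and day 14 interactions they were 0.79 and 0.67. The medians of all tested genes moved in the same directions in TPM. They were -0.19 and -0.12, 0.40 and 0.08, and -0.40 and -0.47, in the same order. With the length trend subtracted the member medians were 1.20, 0.92, -1.05 (sham fractions), 0.83 and 0.72 (interactions). Members with under 50% unique stretches had 1.26 in bound RNA at day 7. After median-ratio rescaling the unbound medians were 0.33, 0.15 and -0.054 at day 2, 7 and 14, and after quantile normalization 0.24 at day 7. The sign of the day 14 value thus depends on scaling. That value lay below the median of all genes in the main fit (0.17 and 0.22). It lay above after quantile normalization (0.11 and -0.043). With no filter the unbound F-test called 0 members and unbound day 2 called 3. The cause of these moves was not tested.

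Leaving out single libraries moved the median between 0.74 and 1.58 (bound day 2), 1.35 and 1.61 (day 7), 1.06 and 1.30 (day 14), -0.15 and 0.66 (day 7 against day 2), -1.48 and -1.18 (sham fractions), -1.08 and -0.24 (day 2 fractions), and 0.25 and 1.10 (day 2 interaction). Counts went from 21 to 71, 60 to 69 and 25 to 62 in bound RNA at day 2, 7 and 14, from 50 to 64 in the sham fractions, and from 0 to 7, 0 to 4 and 0 to 12 in the interactions at day 2, 7 and 14. The counts in bound RNA against sham thus depended on single libraries at day 2 and day 14, and less so at day 7. The median against sham depended on single libraries at day 2 (0.74 to 1.58). At day 14 the median (1.06 to 1.30) moved about as little as at day 7 (1.35 to 1.61). Rps6, with a median of 9 inferred reads, did not pass the filter and was not tested.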
